A study of Homo sapiens with 14 samples.

Results

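Both chromosome 9 and chromosome 14 carry, next to the centromere, sequence that occurs in several similar copies in the human genome. The 2 blocks described here are hg19 positions 65 to 71 Mb of chromosome 9 and 19 to 20.5 Mb of chromosome 14. All peaks of the 14 deposited peak lists that share at least 1 bp with either block were taken as members, which gave 3736 of 227479 peaks, 2134 of them on chromosome 9 and 1602 on chromosome 14. The blocks were chosen by measured values of the same lists, namely how many peaks they held and how tall these were, so number, covered length and height in them are descriptions and carry no test. They were compared with the rest of the same chromosomes, which held 34804 peaks.

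The lists come from chromatin immunoprecipitation sequencing (ChIP-seq, which locates proteins or histone marks on DNA) in DU145 cells, an established human prostate cancer line. Each of 7 antibodies was used once in cells with a stable knockdown of EED, labelled with a single construct number (sh3), and once in control cells carrying the Scramble construct; all cells were kept in puromycin, per the labels. The antibodies were against EED, trimethylated lysine 27 of histone H3 (H3K27me3), RING1A, RING1B, BMI1 and ubiquitylated histone H2A (uH2A), for which a rabbit and a mouse antibody were used. With 1 library per antibody and cell line no difference could be set against replicate error, and the intervals given below are 95% intervals of counting error that take peaks as independent.

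Polycomb repressive complex 2 writes H3K27me3, and EED, one of its core components, also binds that mark. RING1A and RING1B are the ubiquitin ligases of Polycomb repressive complex 1 that write uH2A, and BMI1 is their partner subunit. Pericentromeric duplications are stretches copied within and between chromosomes, rich in recently copied gene families and often packed as repressed chromatin, and short reads from one copy can match another. RefSeq (GRCh38.p14, used for names and order only) lists olfactory receptor genes such as OR11H12, OR4Q3 and OR4K2 and the POTE family genes POTEM and POTEG at the start of chromosome 14, and copies of FOXD4-like (FOXD4L5, FOXD4L4, FOXD4L3), ANKRD20A1 and ZNG1 genes beside the centromere on the long arm of chromosome 9. Which of these genes lies under a given peak was not determined.

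In the whole lists, EED peaks numbered 1372 in knockdown cells and 13082 in control cells, the smallest knockdown list and one of 7 pairs that all had fewer peaks in knockdown cells. The labels describe culture differently for EED and both uH2A antibodies on the one hand and for RING1A, RING1B, BMI1 and H3K27me3 on the other, and this division cannot be told apart from the antibodies. Read numbers per library were not used here, so the depth behind each list is unknown. No member crossed a block edge, and no member had a height of 0.

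Stretches without a peak in any list, of 18.2 Mb on chromosome 9 and 19.1 Mb on chromosome 14, reach across the lower edges into the blocks. Without them 5.5 of the 6 Mb of the chromosome 9 block and 1.44 of the 1.5 Mb of the chromosome 14 block were left. At the upper edges, the last Mb inside the chromosome 9 block held 315 peaks over the 14 lists and the first Mb outside held 196. On chromosome 14 the last 0.5 Mb inside held 275 and the first 0.5 Mb outside held 56. Over this edge the H3K27me3, RING1A, RING1B and BMI1 lists of knockdown cells had 16, 29, 1 and 43 peaks inside and none outside. Those inside lay below 20.2 Mb, apart from 1 BMI1 peak between 20.3 and 20.4 Mb. The fall in number thus came before the edge itself. The same 4 lists of control cells had 0, 59, 37 and 68 peaks inside and 0, 26, 0 and 7 outside.

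H3K27me3 was the antibody with more block peaks in knockdown cells than in control cells. Its lists held 372 block peaks in knockdown cells and 217 in control cells, a ratio of 1.71 (interval 1.45 to 2.04). In the rest of both chromosomes they held 208 in knockdown cells and 3266 in control cells, a ratio of 0.0637. Of all H3K27me3 peaks on chromosomes 9 and 14, 64.1% lay in the blocks in knockdown cells and 6.23% in control cells. The covered length was nearly the same, 65.8 kb in knockdown cells and 63.6 kb in control cells, with a median peak length of 150 bp in knockdown cells and 200 bp in control cells.

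The blocks did not share this difference equally. On chromosome 14 H3K27me3 had 180 peaks in knockdown cells, covering 30.9 kb, and 2 in control cells, covering 0.175 kb, a ratio of 90 with a counting interval of 24.6 to 748.8. On chromosome 9 it had 192 peaks in knockdown cells and 215 in control cells, a ratio of 0.893 (0.731 to 1.09), with 34.9 kb covered in knockdown cells and 63.5 kb in control cells. The 2 control peaks on chromosome 14 were chr14:19439101-19439200, of height 36.0, and chr14:19695751-19695825, of height 32.0, and the next control peak upward was chr14:21094226-21094425, outside the block. In the rest of chromosome 14 the same lists had 130 peaks in knockdown cells and 1739 in control cells.

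Along chromosome 9 the H3K27me3 lists were also arranged differently. From the centromeric side, the 6 successive Mb held 1, 45, 30, 72, 32 and 12 peaks in knockdown cells. In control cells the same Mb held 0, 45, 17, 38, 50 and 65 peaks. The Mb at the far edge was thus the fullest in control cells and among the emptiest in knockdown cells, and the Mb from 68 to 69 was the fullest in knockdown cells.

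EED had few block peaks, 36 in knockdown cells and 64 in control cells, a ratio of 0.562 (0.363 to 0.859) against 0.142 in the rest of both chromosomes. They covered 6.33 kb in knockdown cells and 13.3 kb in control cells. On chromosome 9 there were 19 in knockdown cells and 37 in control cells, and on chromosome 14 there were 17 in knockdown cells and 27 in control cells. The blocks held 11.2% of the EED peaks on these chromosomes in knockdown cells and 3.08% in control cells.

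Among the complex 1 proteins, RING1A had 389 block peaks in knockdown cells and 688 in control cells, a ratio of 0.565 (0.498 to 0.641), and its covered length was 80.4 kb in knockdown cells and 202.4 kb in control cells. The ratio in the rest was 0.0537, from 566 RING1A peaks in knockdown cells and 10535 in control cells. BMI1 had 528 block peaks in knockdown cells, over 115.0 kb, and 753 in control cells, over 202.2 kb, a ratio of 0.701 (0.626 to 0.785) against 0.155 in the rest. For both proteins the ratio was higher on chromosome 14, at 0.794 (200 RING1A peaks in knockdown cells and 252 in control cells) and 0.816 (271 BMI1 peaks in knockdown cells and 332 in control cells), than on chromosome 9, at 0.433 (189 RING1A peaks in knockdown cells and 436 in control cells) and 0.610 (257 BMI1 peaks in knockdown cells and 421 in control cells).

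RING1B went the other way between the blocks. It had 67 block peaks in knockdown cells and 440 in control cells, a ratio of 0.152 (0.116 to 0.197) against 0.0422 in the rest, with 10.1 kb covered in knockdown cells and 93.6 kb in control cells. On chromosome 14 it had 11 peaks in knockdown cells and 243 in control cells, a ratio of 0.0453 (0.0223 to 0.0824), and the interval overlapped that of the rest of chromosome 14 (0.0165 to 0.0477). On chromosome 9 it had 56 in knockdown cells and 197 in control cells, a ratio of 0.284 (0.207 to 0.384). In the chromosome 14 block H3K27me3 peaks were thus far more numerous in knockdown cells, where the rest of that chromosome had a ratio of 0.0748. RING1B peaks were far fewer in the block, but so they were in the rest of chromosome 14, with a ratio of 0.0291. RING1A and BMI1 peaks of the block differed by less than 1.5 times in number, but more in covered length. This was 40.2 kb in knockdown cells and 91.4 kb in control cells for RING1A, and 63.3 kb and 106.2 kb in that order for BMI1.

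The uH2A antibodies gave few block peaks. The rabbit antibody had 15 in knockdown cells and 40 in control cells, a ratio of 0.375 (0.192 to 0.694), and the rest of both chromosomes gave 0.348. The mouse antibody had 51 in knockdown cells and 76 in control cells, a ratio of 0.671 (0.461 to 0.969) against 0.310 in the rest. They covered 4.12 kb (rabbit) and 11.5 kb (mouse) in knockdown cells, and 9.70 kb (rabbit) and 19.3 kb (mouse) in control cells. Of the 7 antibodies, the rabbit uH2A antibody was the one whose block ratio was within 1.5 times of its ratio elsewhere.

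**Figure D1:**
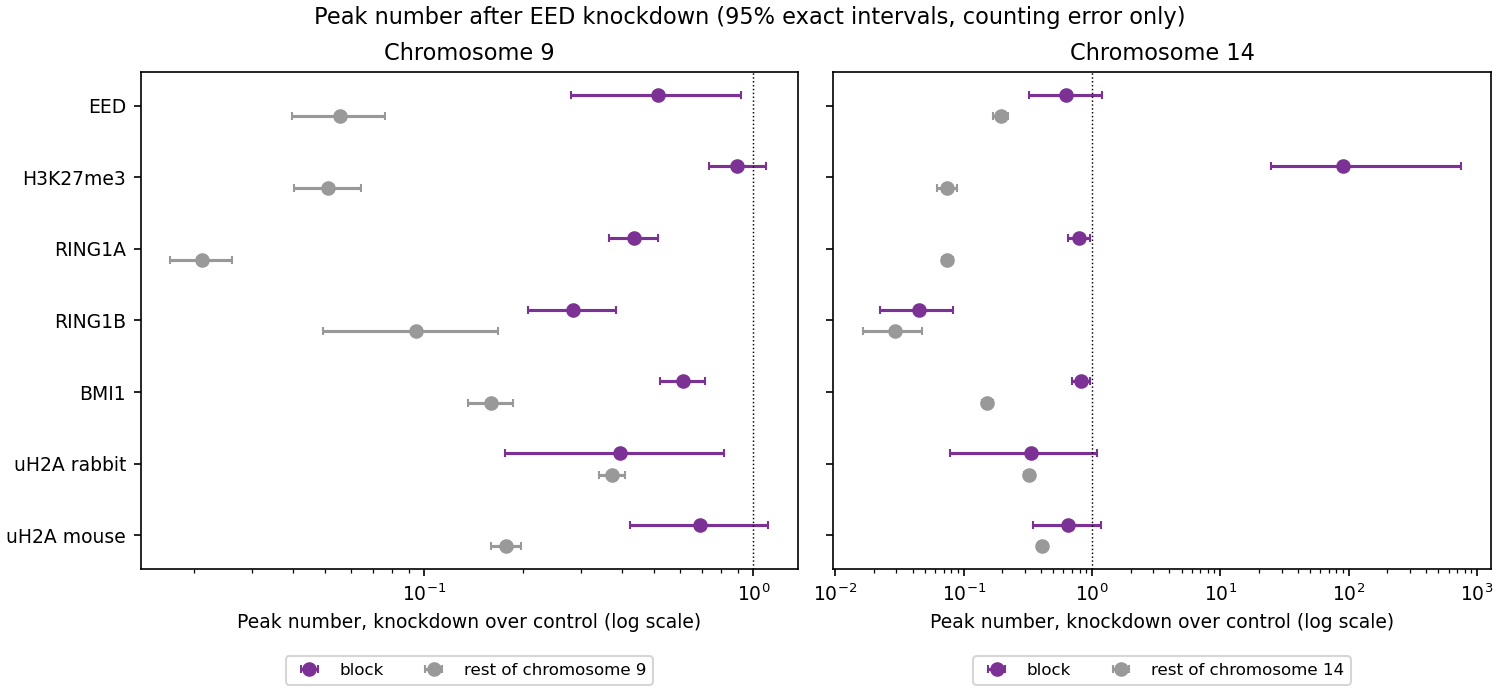
Number of peaks in knockdown cells over that in control cells for each antibody (log axis), in the block and in the rest of chromosome 9 (left) and chromosome 14 (right); lines are 95% exact intervals of counting error. H3K27me3 in the chromosome 14 block stands at 90, while RING1B there stands at 0.0453, beside 0.0291 in the rest of chromosome 14.

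Density was taken over the span left after removing stretches of 1 Mb or more without a peak in any list, which was 6.94 Mb for the blocks and 185.2 Mb for the rest. H3K27me3 peaks were 47.7 times as dense in the blocks as in the rest in knockdown cells and 1.77 times in control cells. The same block-over-rest density was 61.6 in knockdown cells and 17.1 in control cells for RING1B, 22.1 in knockdown cells and 4.88 in control cells for BMI1, and 18.3 in knockdown cells and 1.74 in control cells for RING1A. EED was denser in the blocks in knockdown cells (3.36) but not in control cells (0.847). Pooling both chromosomes put some ratios outside the values of each alone. On chromosomes 9 and 14, EED stood at 8.34 and 4.05 in knockdown cells. In control cells it stood at 0.904 (0.631 to 1.26) and 1.25 (0.818 to 1.82). In the same order RING1A stood at 39.6 and 24.3 in knockdown cells, and RING1B at 26.5 and 25.7 in control cells. H3K27me3 in knockdown cells, at 45.4 and 80.5, had its pooled value in between. Rabbit uH2A was sparser in the blocks than outside, at 0.316 in knockdown cells and 0.293 in control cells. Mouse uH2A stood at 0.762 in knockdown cells, with an interval of 0.565 to 1.01, and at 0.352 in control cells (0.277 to 0.441). On chromosome 9 alone the mouse antibody stood at 1.31 in knockdown cells (0.882 to 1.89) and 0.339 in control cells. All 3 complex 1 proteins were thus denser in the blocks in control cells too, RING1B to the greatest degree: in control cells the blocks held 39.0% of the RING1B peaks on the chromosomes, 15.5% of the BMI1 peaks and 6.13% of the RING1A peaks.

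Apart from an alternative height cut named at the end, heights were compared only within a list, since the scale between lists is not known. The median height of block peaks exceeded that of the rest in all 14 lists, by factors between 1.01 and 1.19, so that the typical block peak was little taller than others of its list. These factors pool both chromosomes. With chromosome 9 alone they lay between 1.11 and 1.34. With the chromosome 14 block alone a taller median held in 8 of the lists, and the factors lay between 0.667 and 1.35. The tallest 10% of each list were also counted. Of the RING1A peaks in the blocks they made up 7.46% in knockdown cells and 40.8% in control cells, where the rest had 1.59% in knockdown cells and 13.6% in control cells. Of the BMI1 peaks they made up 10.6% in knockdown cells and 24.7% in control cells, where the rest had 2.98% in knockdown cells and 8.14% in control cells. Both proteins thus had larger shares of tall peaks in the blocks than in the rest.

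For H3K27me3 the tall share was 4.30% in the blocks and 1.92% in the rest in knockdown cells, and 21.2% in the blocks and 20.1% in the rest in control cells. For RING1B it was 1.49% in the blocks and 6.90% in the rest in knockdown cells, from 1 and 2 peaks, and 7.73% in the blocks and 1.89% in the rest in control cells. EED had 27.8% in the blocks and 5.59% in the rest in knockdown cells, and 35.9% in the blocks and 14.9% in the rest in control cells. The tall share was therefore lower in the blocks for RING1B in knockdown cells. For H3K27me3 in control cells it was near that of the pooled rest. Chromosome 9 held 215 of these 217 block peaks. There the share was 21.4% in the block (16.1 to 27.5) and 13.9% in the rest (12.2 to 15.8). In the rest of chromosome 14 it was 25.6%.

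Rabbit uH2A had 26.7% in the blocks and 10.5% in the rest in knockdown cells, and 15% in the blocks and 9.94% in the rest in control cells. Mouse uH2A had 33.3% in the blocks and 17.7% in the rest in knockdown cells, and 44.7% in the blocks and 15.8% in the rest in control cells.

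**Figure D2:**
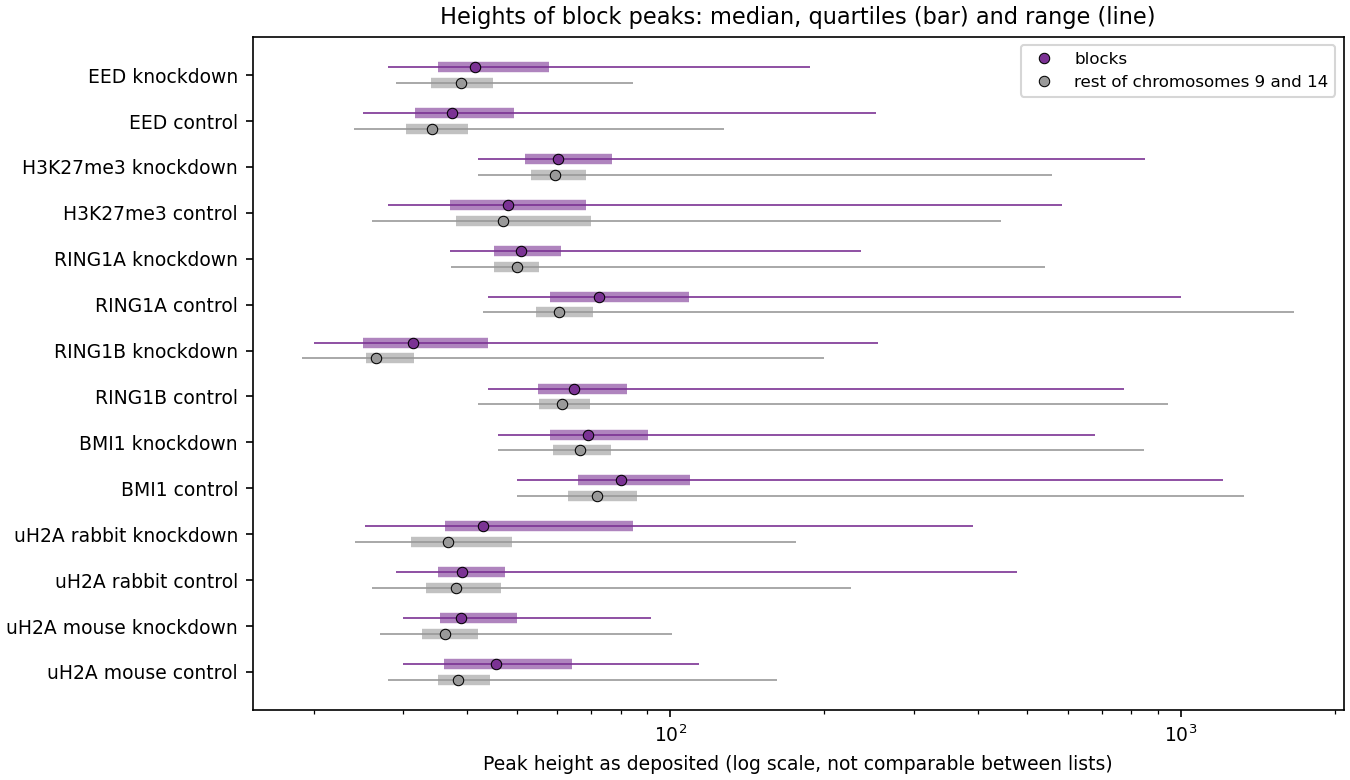
Peak heights as deposited (log axis) for the blocks and for the rest of chromosomes 9 and 14 in each list; dots are medians, bars span the quartiles and lines the whole range. With both chromosomes pooled, medians in the blocks are 1.01 to 1.19 times those of the rest, while the ranges overlap in every list.

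Peaks were gathered in few places within the blocks. The fullest 100-kb windows of chromosome 9 were 68.4 to 68.5 Mb with 282 peaks, 66.4 to 66.5 Mb with 224 and 66.5 to 66.6 Mb with 142. On chromosome 14 they were 19.6 to 19.7 Mb with 267 peaks, 19.5 to 19.6 Mb with 254 and 19.8 to 19.9 Mb with 226. EED and uH2A peaks of knockdown cells occupied very little of the chromosome 9 block: EED had peaks in 3 of its 60 windows in knockdown cells and 11 in control cells, rabbit uH2A in 2 in knockdown cells and 9 in control cells, and mouse uH2A in 6 in knockdown cells and 11 in control cells. RING1A peaks lay in 34 of these windows in knockdown cells and 49 in control cells, and BMI1 peaks in 40 in knockdown cells and 49 in control cells.

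A pair of stretches picked out after their values were seen, 66.4 to 66.6 Mb and 68.3 to 68.5 Mb, each make up 3.33% of the chromosome 9 block. The first held 57.9% of the EED peaks of that block in knockdown cells and 48.6% in control cells, and the second 42.1% in knockdown cells and 24.3% in control cells. Rabbit uH2A was alike, with 45.5% in the first stretch in knockdown cells (5 of 11 peaks) and 53.6% in control cells (15 of 28). In the second it had 54.5% in knockdown cells (6 of 11) and 21.4% in control cells (6 of 28). RING1A, with many more peaks, had smaller shares in the first. These were 20.6% in knockdown cells (39 of 189) and 8.72% in control cells (38 of 436). On chromosome 14 the stretch from 19.4 to 20.2 Mb, also chosen afterwards, is 53.3% of the block and held 97.8% of its H3K27me3 peaks in knockdown cells, 100% of its RING1B peaks in knockdown cells and 97.5% in control cells, and 96.3% of its BMI1 peaks in knockdown cells and 91.0% in control cells.

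**Figure D3:**
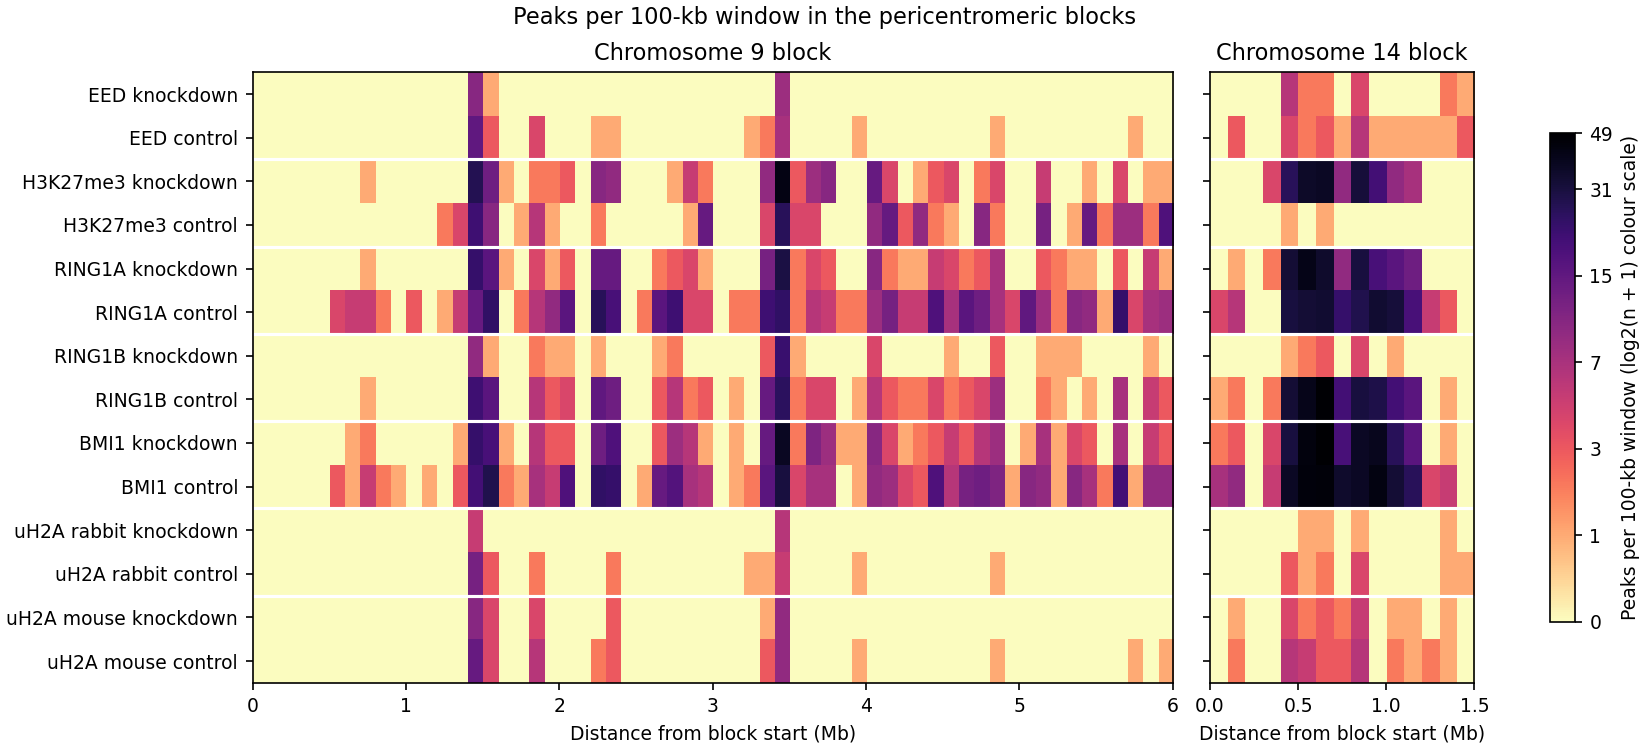
Peaks per 100-kb window along both blocks (horizontal axis, Mb from the block start) in each list, knockdown above control for each antibody; colour runs on a log2(n + 1) scale. Columns 1.4 and 3.4 Mb into the chromosome 9 block are filled in all 14 lists, and in the chromosome 14 block H3K27me3 is filled in knockdown cells and nearly empty in control cells.

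The overlap of the lists was measured next. A control peak was called kept when it shared at least 1 bp with a knockdown peak of the same antibody. BMI1 kept 48.9% of its 753 block peaks (45.2 to 52.5), against 12% in the rest and 21.1% of the whole list. Mouse uH2A kept 55.3% of 76 (43.4 to 66.7), against 17.3% in the rest and 10.7% of the whole list. EED kept 37.5% of 64 (25.7 to 50.5), against 8.19% in the rest and 5.79% of the whole list.

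H3K27me3 kept 36.9% of 217 (30.4 to 43.7), against 1.62% in the rest and 3.81% of the whole list. RING1A kept 28.5% of 688 (25.1 to 32.0), against 3.27% in the rest and 4.07% of the whole list. RING1B kept 10.2% of 440 (7.56 to 13.4), above the 1.89% of the rest but below the 20.7% of its whole list. Rabbit uH2A kept 17.5% of 40 (7.34 to 32.8), against 25.8% in the rest and 28.8% of the whole list. The block share less that of the rest was 37.9 points for mouse uH2A (26.7 to 48.6), 36.9 for BMI1 (33.2 to 40.6), 35.2 for H3K27me3 (29.1 to 41.8), 29.3 for EED (18.4 to 41.6), 25.2 for RING1A (21.9 to 28.7), 8.33 for RING1B (5.51 to 11.6) and -8.33 for rabbit uH2A (-17.2 to 6.19). In the same order of antibodies, the block-over-rest density in knockdown cells was 0.762, 22.1, 47.7, 3.36, 18.3, 61.6 and 0.316. The part of the density in the kept share was not tested.

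RING1B again differed between blocks, with 19.3% of 197 control peaks kept on chromosome 9 (14 to 25.5) and 2.88% of 243 on chromosome 14 (1.17 to 5.84). For RING1A and BMI1 the order was the reverse: RING1A kept 22.7% on chromosome 9 and 38.5% on chromosome 14, and BMI1 kept 43.7% and 55.4% in that order. Of the control peaks that were not kept, 128 of 492 for RING1A and 131 of 385 for BMI1 had a knockdown peak of the same antibody within 1000 bp, where the rest had 242 of 10190 for RING1A and 239 of 3625 for BMI1.

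**Figure D4:**
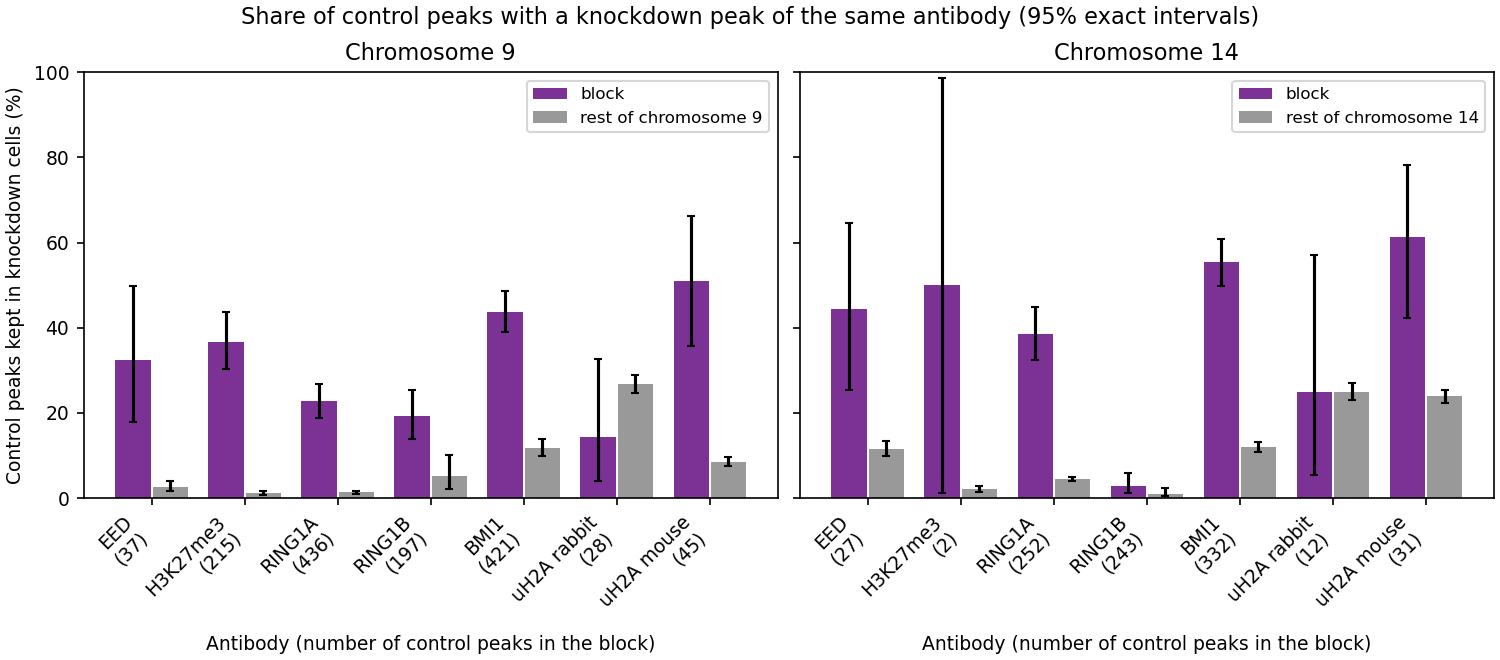
Share of control peaks that overlap a knockdown peak of the same antibody (vertical axis, %), in the block and in the rest of chromosome 9 (left) and chromosome 14 (right), with 95% exact intervals and the number of control peaks in the block under each antibody. BMI1 stands at 43.7% and 55.4% in the chromosome 9 and 14 blocks, and H3K27me3 on chromosome 14 rests on 2 peaks.

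Read in the other direction, the share of knockdown peaks that lay on a control peak of the same antibody stood closer to that outside than the kept share did for 5 of the 7 antibodies, RING1B and rabbit uH2A being the exceptions. It was 78.2% for BMI1 in the blocks, 81.3% in the rest and 75% in the whole list. RING1A had 57.3% in the blocks, 63.6% in the rest and 60.7% in the whole list. RING1B had 71.6% in the blocks, 48.3% in the rest and 63.9% in the whole list. EED had 66.7% in the blocks, 59.4% in the rest and 57.1% in the whole list.

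The uH2A antibodies differed in this respect, with 53.3% of 15 rabbit peaks in the blocks against 74.4% in the rest and 69.8% in the whole list, and 84.3% of 51 mouse peaks in the blocks against 58.9% in the rest and 52.9% in the whole list. For H3K27me3 the pooled share hid a contrast: it was 23.9% in the blocks, 26.4% in the rest and 32.4% in the whole list, but 45.8% of 192 peaks on chromosome 9 (38.6 to 53.2) and 0.556% of 180 on chromosome 14 (0.0141 to 3.06).

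In the chromosome 14 block 179 H3K27me3 peaks of knockdown cells overlapped no H3K27me3 control peak, and 92 such peaks lay in the rest of that chromosome. A peak of any other antibody in either cell line lay on 85.5% of those in the block (79.4 to 90.3) and on 89.1% of those in the rest, so sharing as such was near the level elsewhere. BMI1 peaks of knockdown cells lay on 80.4% in the block and 67.4% in the rest, and BMI1 peaks of control cells on 67% in the block and 78.3% in the rest. RING1A peaks of knockdown cells lay on 60.9% in the block and 35.9% in the rest, and those of control cells on 48% in the block and 64.1% in the rest. RING1B peaks lay on 5.03% of the block peaks in knockdown cells and on 65.4% in control cells, where the rest had 2.17% in knockdown cells and 50% in control cells.

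Of the RING1B control peaks without a RING1B knockdown peak, 236 lay in the chromosome 14 block and 544 in the rest of the chromosome. Any other antibody lay on 98.7% in the block and 94.9% in the rest, and BMI1 of control cells on 91.5% in the block and 82.9% in the rest. The gap was wider for peaks of knockdown cells: BMI1 lay on 70.3% in the block and 31.6% in the rest, RING1A on 52.5% in the block and 31.4% in the rest, and H3K27me3 on 43.2% in the block and 10.5% in the rest. These 3 lists are also denser in the block than in the rest.

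On chromosome 9, 136 H3K27me3 control peaks of the block had no knockdown counterpart, and any other antibody in either cell line lay on 25.7% of them (18.6 to 33.9). In the rest of chromosome 9 it lay on 18% of 1510 such peaks, within 1.5 times of the block.

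Within a cell line, block peaks lay on a peak of at least 1 of the other 6 antibodies more often than peaks in the rest of both chromosomes in all 14 lists. Against the whole lists this did not always hold. In knockdown cells the block shares of H3K27me3, RING1A and RING1B were near those of their whole lists, and that of BMI1 was lower. The gap between blocks and rest was widest for uH2A. Mouse uH2A peaks lay on another antibody in 88.2% of cases in the blocks, 20.7% in the rest and 17.7% of the whole list in knockdown cells, and in 97.4%, 67.1% and 57.1% of cases in the same order in control cells. For rabbit uH2A these shares were 93.3%, 18.2% and 12.2% in knockdown cells, and 100%, 66.6% and 55.8% in control cells.

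EED peaks lay on another antibody in 86.1% of cases in the blocks, 62.6% in the rest and 63.5% of the whole list in knockdown cells, and in 92.2%, 76.6% and 71.9% in control cells. H3K27me3 had 84.4%, 75% and 82.1% in knockdown cells and 46.5%, 24.1% and 16% in control cells. The H3K27me3 lists thus differed more between cell lines than between the blocks and the rest.

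For the complex 1 proteins the order is again blocks, rest, whole list. RING1A had 78.9%, 50.5% and 76.4% in knockdown cells and 74.7%, 50.8% and 48.5% in control cells. RING1B had 92.5%, 62.1% and 88.4% in knockdown cells and 94.8%, 92.7% and 93.1% in control cells. BMI1 had 67.6%, 61.9% and 71.5% in knockdown cells and 79.8%, 75.4% and 76.4% in control cells. Over both chromosomes RING1B in control cells and BMI1 were near their shares elsewhere. BMI1 of knockdown cells differed by chromosome. On chromosome 14 alone it stood 0.625 points below the rest of that chromosome. On chromosome 9 alone it had 70% in the block and 51.7% in the rest, 18.4 points above (9.1 to 27.3). RING1B of control cells stood 6.89 points above on chromosome 9 (1.26 to 13.5) and 0.191 points above on chromosome 14.

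The pairs of lists show which antibodies met. In control cells 92.0% of RING1B block peaks lay on a BMI1 peak and 72% on a RING1A peak, near the 83.0% and 76.3% of the rest. Mouse uH2A peaks lay on RING1A peaks in 97.4% of cases in control cells (56.3% in the rest) and on BMI1 peaks in 88.2% (24.5% in the rest). EED peaks lay on BMI1 peaks in 87.5% of cases in control cells (37.5% in the rest). In knockdown cells 80.4% of H3K27me3 block peaks lay on a BMI1 peak (64.9% in the rest), and 86.6% of RING1B block peaks lay on an H3K27me3 peak (44.8% in the rest).

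**Figure D5:**
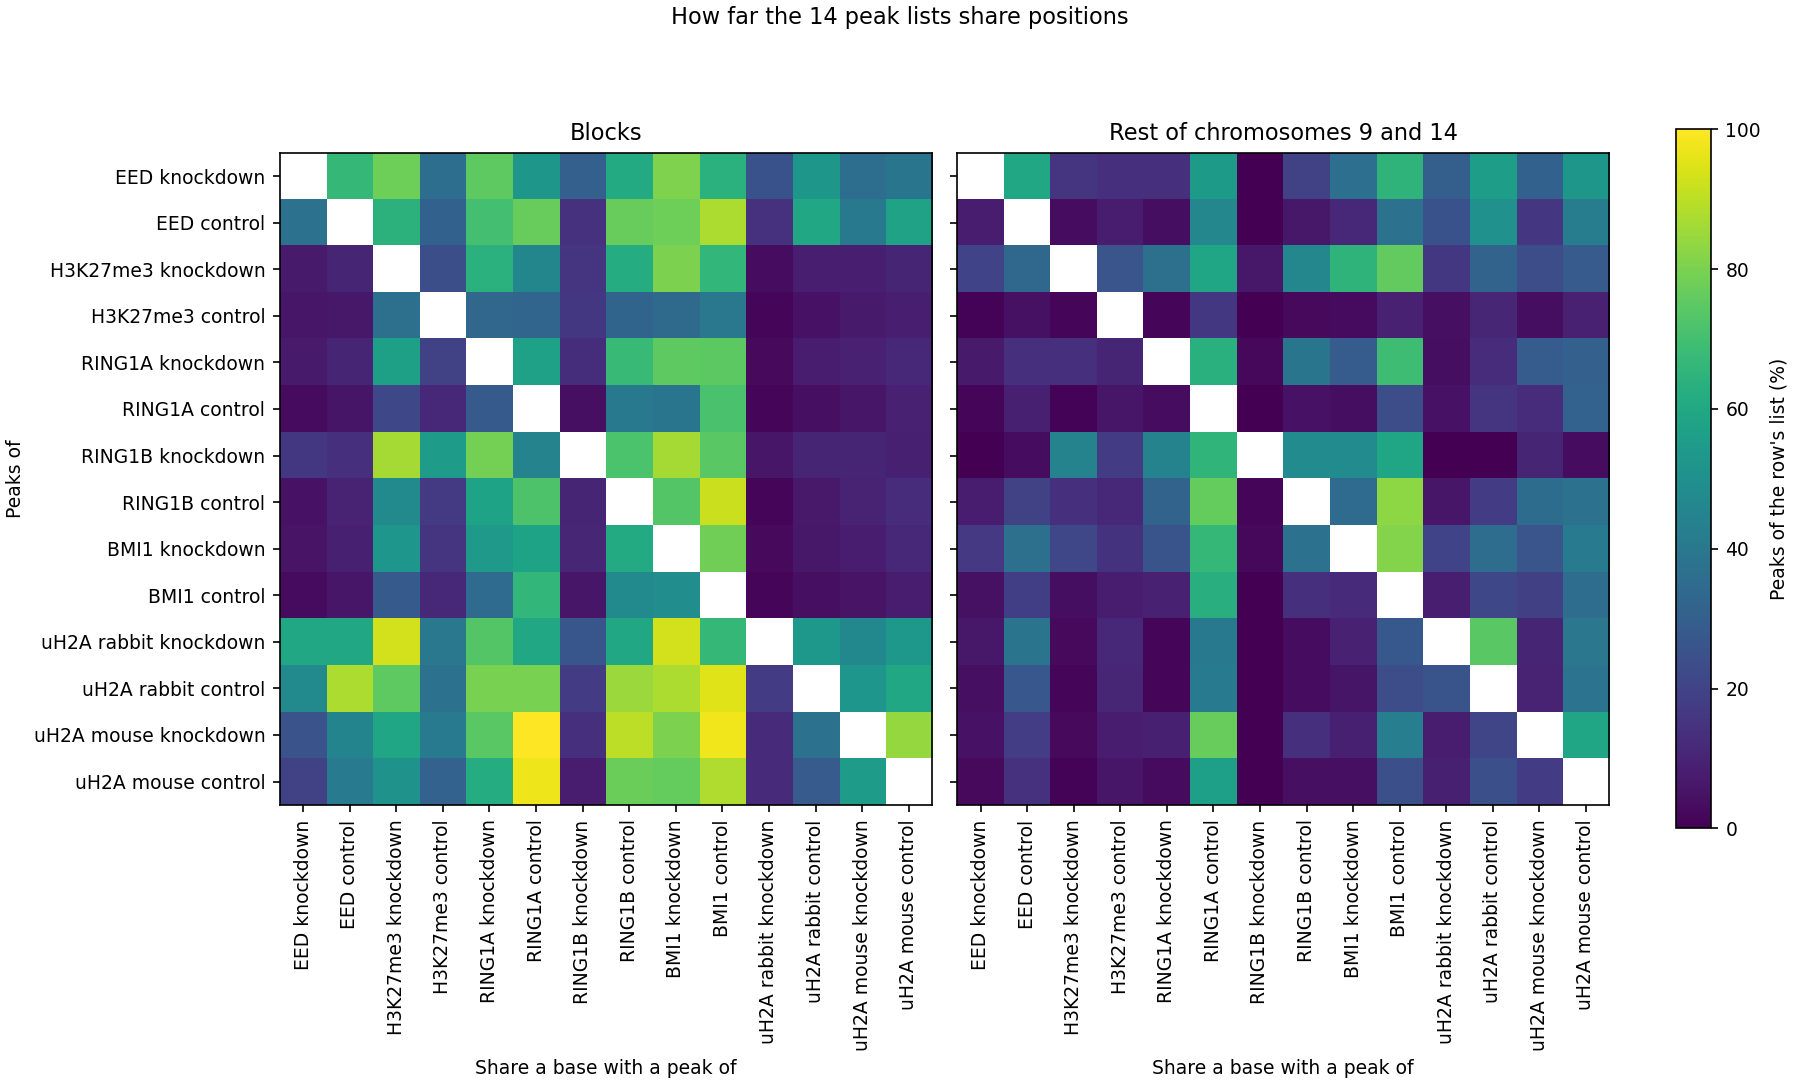
Share of the peaks of each list (rows) that share a base with a peak of each other list (columns), in % by colour, in the blocks (left) and in the rest of chromosomes 9 and 14 (right); the diagonal is empty. Mouse uH2A on RING1A in control cells stands at 97.4% in the blocks against 56.3% in the rest. The row of EED in knockdown cells is mixed. It has 77.8% in the blocks against 15% in the rest on H3K27me3 in knockdown cells. On mouse uH2A in control cells it has 38.9% against 53.1%.

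Merging the overlapping peaks of all 14 lists gave 1204 regions in the blocks, of median length 200 bp, and 19059 in the rest, of median length 150 bp. Chains of overlapping peaks were joined, so the lists of a region need not share a single position. The part of peak density in the number of lists per region was not tested. A region held peaks of 2.78 lists on average in the blocks and of 1.75 in the rest. Regions with 4 or more lists made up 28.4% in the blocks (25.9 to 31) and 9.67% in the rest, and those with 7 or more made up 6.89% and 1.68% in the same order. On chromosome 14 alone 35.8% of 452 block regions held 4 or more lists, and on chromosome 9 alone 23.9% of 752.

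A single region held peaks of all 14 lists, chr9:66454701-66458725, a long one of 4025 bp, and the rest of both chromosomes had none. Its heights in knockdown cells were 42.0 for EED, 125.4 for H3K27me3, 135.3 for RING1A, 35.5 for RING1B, 186.6 for BMI1, 69.3 for rabbit uH2A and 86.5 for mouse uH2A. Its heights in control cells were 61.4 for EED, 145.8 for H3K27me3, 346.4 for RING1A, 178.5 for RING1B, 253.6 for BMI1, 101.6 for rabbit uH2A and 106.6 for mouse uH2A. In knockdown cells EED stood at percentile 73.5 and RING1B at percentile 71.7 of their lists, while the 7 control heights stood between percentiles 94.8 and 99.8. The next most shared region of that block, chr9:66463251-66463575, held 13 lists and lacked rabbit uH2A in knockdown cells.

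On chromosome 14 the region with the most lists was chr14:19612701-19614075, which held 12 and lacked H3K27me3 in control cells and RING1B in knockdown cells. It contained the tallest block peak of EED in control cells, of height 252.9, and of rabbit uH2A, of height 391.5 in knockdown cells and 477.3 in control cells, which is 11.1 times the list median in knockdown cells and 13.1 times in control cells. It also held the tallest block H3K27me3 peak without a control counterpart, of height 216.5, whose nearest H3K27me3 control peak was 82325 bp away. The other 4 most shared regions of that block, such as chr14:19818526-19820500 and chr14:19614151-19614900, held 11 lists each and lacked the same pair of lists together with rabbit uH2A in knockdown cells.

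The tallest block peaks of the remaining lists lay elsewhere. For EED in knockdown cells it was chr9:68426051-68426350, of height 188.0. For mouse uH2A it was chr9:68413526-68413925 in knockdown cells, of height 91.5, and chr14:19614151-19614875 in control cells, of height 114. The lists of the other library set had a place in common. At chr9:66833651-66834000, a stretch of 350 bp, lay the tallest block peak of H3K27me3, RING1A, RING1B and BMI1 in both cell lines, and no EED or uH2A list had a peak there. Relative to the list median, its height was 14.8 in knockdown cells and 14.4 in control cells for H3K27me3, 4.70 in knockdown cells and 17.1 in control cells for RING1A, 9.83 in knockdown cells and 12.7 in control cells for RING1B, and 10.7 in knockdown cells and 18.0 in control cells for BMI1. These 4 antibodies form the set with its own culture description, and whether that division moves with this place was not tested.

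The tallest control peaks that were not kept and the tallest knockdown peaks without a control counterpart mostly lay in the stretches already named. Around chr9:68424501-68424925 the rabbit uH2A list of knockdown cells had its tallest peak without a control counterpart, of height 154.5, and the EED list of knockdown cells had its own at chr9:68424601-68424900, of height 97.2. The tallest H3K27me3 control peak not kept was chr9:70921826-70923000, of height 212.0 and length 1175 bp, near the far edge of the block. BMI1 had its tallest control peak not kept, of height 236.8, at chr9:66822301-66822475, where RING1B had its tallest new knockdown peak, of height 51.9.

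The side of the chromosome 9 centromere that faces the block, from 38 Mb up to the stretch without peaks, belongs to the rest and held 1689 peaks. H3K27me3 had 68 there in knockdown cells and 130 in control cells, and RING1B had 11 in knockdown cells and 113 in control cells. In knockdown cells this side held 68 of the 78 H3K27me3 peaks and 11 of the 13 RING1B peaks in the rest of chromosome 9, so most peaks of these lists outside the block on that chromosome lay on the facing side. Without it the block-over-rest density in knockdown cells was 67.4 for H3K27me3, against 47.7 with it, and 94.4 for RING1B, against 61.6 with it. In control cells it was 1.75 for H3K27me3 and 19.4 for RING1B.

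Because similar copies are found on the same chromosome, peaks of a list with identical length, deposited offset and height were counted. Among block peaks taller than the list median, those with such a twin numbered 7 of 513 for RING1A in control cells, 2 of 527 for BMI1 in control cells and 1 of 52 for mouse uH2A in control cells, and none had one in the other 11 lists. In the rest the counts were 192 of 6084, 28 of 2539 and 47 of 3367 for the same 3 lists. A match is likelier where more peaks are compared, so these counts do not measure how far copies share reads. How the authors placed reads with several matches is not stated in the labels, and its part in the peak numbers was not tested.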

How the data were processed

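ChIP-seq peaks of 7 antibodies were used, 1 library each in EED knockdown and Scramble control DU145 cells. Per the labels' protocols, 40-nt reads came from a HiSeq instrument. Bowtie and hg19 are given in the submitters' processing notes, and the names of the deposited lists carry that of the peak caller HPeak, whose settings are not stated. The authors deposited 1 list per library, without a header. The signal in the height column was deposited as the authors' peak caller gave it, with no normalization stated. The score in the last column, which was not used further, was also deposited by the authors without a stated scale. Read depth is unknown.

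Members and lists were chosen with earlier results of these data known. Overlap meant at least 1 bp, unless another rule is named. Density was taken over the span without peak-free stretches of 1 Mb or more. Named regions were, per block, the 5 merged regions with most lists and the 3 fullest 100-kb windows, and per list the tallest peak and the tallest new or lost one. Intervals are 95%: Clopper-Pearson for shares, exact conditional for ratios of counts and Newcombe for differences of shares. They cover counting error only. No p-value was computed. The overlap code was tested on simulated peaks and recovered the planted share in 7 of 7 antibodies. Python 3.11.15, numpy 2.4.6, pandas 2.3.3, scipy 1.17.1 and matplotlib 3.10.9 were used. No sequence is shown, since no genome of the files' build was used here.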

Additional observations from a re-analysis of the deposited data

Results flagged for a closer look

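Over both blocks and in the chromosome 14 block, H3K27me3 lay on the other side of 1 from the other antibodies. Its peak number in knockdown cells over that in control cells was 1.71 over both blocks, while the other 6 antibodies lay between 0.152 (RING1B) and 0.701 (BMI1). In the chromosome 14 block alone the ratio was 90 for H3K27me3, from 180 peaks in knockdown cells and 2 in control cells, and the other 6 lay between 0.0453 (RING1B) and 0.816 (BMI1). In the chromosome 9 block H3K27me3 stood at 0.893 (0.731 to 1.09), from 192 peaks in knockdown cells and 215 in control cells, on the same side of 1 as the others. The difference between antibodies was not tested, since each ratio rests on 1 library per cell line.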

How the results depend on the processing

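The 640 alternative values comprised 464 that stayed within the main interval or within 1.5 times of a main count, 173 that moved further and 3 that did so with a change of direction of a value whose own interval had lain on 1 side. These 3 were the H3K27me3 peak ratio (1.71 over both blocks), which was 0.893 on chromosome 9 alone, the density of H3K27me3 control peaks (1.77 times the rest), which was 0.0669 on chromosome 14 alone, and the share of BMI1 knockdown peaks on another antibody (5.70 points above the rest), which was -0.625 points on chromosome 14 alone. The causes were not tested. In all, 14 values crossed to the other side of 1 or 0. Of these, 7 were ratios of median height, 6 of them on chromosome 14 alone, with H3K27me3 control at 0.667 (1.02) and EED knockdown at 0.879 (1.07). The others were the covered length of H3K27me3, 0.550 (1.03) on chromosome 9, the density of EED control peaks, 1.25 (0.847) on chromosome 14, and that of mouse uH2A knockdown peaks (0.762), 1.31 on chromosome 9 and 1.06 with tall peaks only. Ratios of peak numbers on chromosome 9 and chromosome 14 alone were 0.433 and 0.794 for RING1A, 0.284 and 0.0453 for RING1B, and 0.610 and 0.816 for BMI1, and that of H3K27me3 on chromosome 14 was 90. With only peaks that reached the median height of the control list, the ratios were 2.60 for H3K27me3, 0.214 for RING1A, 0.0198 for RING1B and 0.533 for BMI1. This cut was also applied to the knockdown list, though the scale between lists is not known. For H3K27me3 it was 40.8, and no block peak of knockdown cells was lower than 42. For RING1B it was 61, where the knockdown list had a median of 26. All values with tall peaks only share this limit, and the part of list scale in them was not tested. Merging peaks within 1000 bp gave 0.704 for RING1A and 0.209 for RING1B. The kept share on chromosome 9 and chromosome 14 alone was 22.7% and 38.5% for RING1A, 19.3% and 2.88% for RING1B, and 43.7% and 55.4% for BMI1; on chromosome 14 it was 50% for H3K27me3 and 35.9% over all antibodies (33.5% in both blocks). With tall peaks only it was 44.8% for H3K27me3, 13.3% for RING1A, 1.98% for RING1B, 38.5% for BMI1 and 25.2% over all. With merging it was 44.1%, 36.2%, 14.9%, 54.3% and 39.3% in the same order. Asking for an overlap of 50% of the peak gave 17.4% for RING1A, 39.4% for BMI1 and 25.5% over all. Counting peaks within 1000 bp gave 46.5% for RING1A, 14.8% for RING1B, 66.1% for BMI1, 72.4% for mouse uH2A and 46.8% over all. The share of knockdown peaks on a control peak over all antibodies (58.2%) was 62.8% on chromosome 9, 53.2% on chromosome 14, 51.1% with tall peaks, 55.5% at 50% overlap and 66.7% within 1000 bp. The share on another antibody (78.6% over all lists) was 76.2% on chromosome 9, 81.8% on chromosome 14, 76.2% with tall peaks, 74.5% at 50% overlap and 87.8% within 1000 bp. A taller median in the blocks held in 14 lists, and in 8 with chromosome 14 alone. Leaving the side of the chromosome 9 centromere that faces the block out of the rest, chosen for numbers and lengths after seeing the data, left the ratios of number and of length higher in the blocks than in the rest for all 7 antibodies. No paired analysis was possible because no result comes from a test and each group holds 1 library. List sizes, from 1372 to 56011 peaks, limit what the smaller lists can show.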
